A study of Mus musculus with 31 samples.

Results

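The mRNAs of the cytosolic ribosomal proteins were followed in mouse liver with and without the glucose-responsive transcription factor ChREBP. Members were the probes whose gene name was that of a large-subunit protein (Rpl followed by a number), a small-subunit protein (Rps followed by a number), a stalk protein (Rplp0, Rplp1, Rplp2) or Rpsa, so that close paralogs such as Rpl22l1, Rps27l, Rps4l and Rpl7l1 were included. These were 81 genes, 48 of the large and 33 of the small subunit, of 23968 gene names measured, read by 176 of the 36057 probes of the deposited table. The array carried 182 such probes of 84 genes, and 6 probes did not pass the filter on dim spots. They were the single probes of Rpl3l, Rpl10l and Rpl39l (above the limit on 1, 0 and 5 of 31 arrays) and 1 probe each of Rps2, Rpl11 and Rps27a (0, 0 and 7 arrays), genes that other probes measured.

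The livers came from male C57BL6/J mice that had 18 hours of refeeding, with food and 20% glucose in the drinking water, after a 24-hour fast. There were 8 ChREBPβ-deficient mice, which lacked exon 1b of Mlxipl after CRISPR/Cas9 deletion, 8 WT littermates of that line, 7 total ChREBP-KO mice (Mlxipl-null, lacking the α and β isoforms) and 8 WT littermates of that line. Both deletions affected the whole body, so an effect in liver cannot be told apart from one relayed by another tissue. Age was not given in the sources used here, and whole liver tissue was used, in which fewer cells of a type and less RNA per cell cannot be told apart. One mouse of the total ChREBP-KO group is not analysed here.

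Ribosomes carry these proteins in fixed proportion, and their mRNAs are among the most abundant of the cell. The mRNAs start with a C followed by a run of pyrimidines (the terminal oligopyrimidine, or TOP, motif), through which mTORC1 and LARP1 control their translation, so that protein output can change with little change in mRNA. A few members have paralogs expressed from separate genes. Rpl22l1 encodes a protein closely related to Rpl22 that can take its place in the ribosome, and Rps27l, a p53 target, encodes a close relative of Rps27. The arrays measured mRNA level and not translation.

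The letters at the start of the genes are shown because the TOP motif is the feature that joins these mRNAs. Each line gives 30 bases of the sense strand, 15 before and 15 from the annotated start, from RefSeq on GRCm38.p6, with the longest run of C and T in capitals.
Rpl22l1, chr3:28805493-28805522, plus strand: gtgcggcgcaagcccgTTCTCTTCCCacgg
Rps27, chr3:90213634-90213663, minus strand: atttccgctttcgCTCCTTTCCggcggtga
Rps27l, chr9:66946071-66946100, plus strand: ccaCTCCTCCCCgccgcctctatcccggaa
Rps2, chr17:24720048-24720077, plus strand: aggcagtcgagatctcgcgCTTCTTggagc
Rps15a, chr7:118116133-118116162, minus strand: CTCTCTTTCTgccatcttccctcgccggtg
Rpl22, chr4:152325711-152325740, plus strand: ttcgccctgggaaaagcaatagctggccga
A C followed by 5 or more bases that were each C or T was present in the 30-base window of 35 of the 60 member genes with a RefSeq promoter entry (58.3%), compared with 25.5% of 27025 genes. Neither annotated start of Rpl22 had such a run, and the runs of Rps27l and Rps15a lay before the first annotated start. Rpsa, whose letters are not shown, had no such run (longest run of C and T 5 bases). Rps12, also not shown, had one. Annotated starts can lie some bases away from the starts used in liver, so a missing run says only that these letters were not in this window. CACGTG, the E-box core that ChREBP binds as a pair, was searched in the 300 bases around the start and was found in 6 of the 60 member genes (10%) and in 8.09% of all genes.

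Mlxipl, which lacks exon 1b in the ChREBPβ line and is null in the total line, was checked first. Its brightest probe read between 14.88 and 15.33 on the log2 scale in WT littermates of the ChREBPβ line and between 14.40 and 14.84 in ChREBPβ-deficient mice (log2 difference -0.45, SE 0.071, limma adjusted p = 0.0152). In the total line it read between 15.14 and 15.48 in WT mice and between 13.89 and 14.30 in total ChREBP-KO mice (-1.16, SE 0.073, limma adjusted p = 8.05e-13). The groups did not overlap in either line. A second probe differed by -0.59 (limma adjusted p = 0.00313) and another by -0.048 (adjusted p = 0.603) in the total line, and the probes were not matched to the deleted parts. Hepatocyte markers passed the filter for 10 of 10 genes, with a summed log2 level of 20.7 to 20.9 in the 4 groups. Of the markers of other cells, those of B cells, T and NK cells, macrophages, neutrophils and endothelium had 0 of 27 passing genes called in total ChREBP-KO livers by limma, with 1 at an unadjusted p under 0.05. Of the other lists, 3 of 10 hepatocyte, 2 of 6 stellate, 1 of 6 adipocyte, 1 of 6 red cell and 1 of 5 cholangiocyte genes were higher and 4 of 8 exocrine pancreas genes were lower there. Over all genes, 29.3% were called in this comparison (14.4% higher and 14.8% lower). The part of these markers in the results was not tested.

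No array had a saturated member spot. The median local background was 15 to 21 on 30 arrays and 33 on that of total ChREBP-KO replicate 4; without it, limma called 15 higher and 13 lower members in total ChREBP-KO livers, beside the 16 and 16 given below. A total of 155 member probes had a mean log2 level of 11 or more (11.8 to 17.4), and 21 were dimmer (4.96 to 10.8). The limit of 11 was chosen after the values were seen, and it matters below because 135 of the 155 bright probes but 5 of the 21 dim ones carried a RefSeq mRNA entry. Of 5056 spots on the array with a mean log2 level of 13 or more, 733 (14.5%) were member spots, since 65 member probes were printed 10 times. Quantile normalization, which gives every array the same distribution, acted on a bright end in which 14.5% of the spots were member spots.

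In ChREBPβ-deficient livers the members lay slightly below the WT littermates with little spread among most probes. The 10th and 90th percentiles of their log2 differences were -0.087 and -0.0012, and the extremes were -0.281 and 0.079. The fitted log2 difference was below 0 for 158 of 176 probes and for 75 of 81 genes (1 probe per gene), compared with 50.4% of all probes. The median over the members was -0.041, and over all probes it was -0.00067. None of the 176 passed the limma test at an adjusted p of 0.05, with 0.00277% of all probes called, the single one being a probe of Mlxipl. The lowest adjusted p of a member was 0.986. At an unadjusted p under 0.05, 14 members were lower and 1 was higher, compared with 2.45% and 2.53% of all probes. No member had groups without overlap, which held for 0.0222% of all probes. The exact Mann-Whitney test per probe with Benjamini-Hochberg adjustment also called 0 members.

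The difference per mouse was given by the median, over the 81 genes, of the deviation of each gene from its mean over all mice. This level ranged from -0.045 to 0.012 (mean -0.025, SD 0.016, n = 8) in ChREBPβ-deficient mice and from -0.017 to 0.041 (mean 0.016, SD 0.018, n = 8) in their WT littermates. The groups overlapped, and one ChREBPβ-deficient mouse, replicate 2, accounted for the highest value of its group, with the next at -0.024. The median difference was -0.042 in the arrays of each of the 2 scan days. It stayed below 0 in the settings tried, at -0.065 when the spots of a probe were collapsed to their median before normalization, at -0.063 in the values deposited by the authors, and at -0.097 and -0.098 when arrays were scaled to their 75th percentile. The size of the difference moved with the scaling, and 0 members passed the test under any of these settings.

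**Figure D1:**
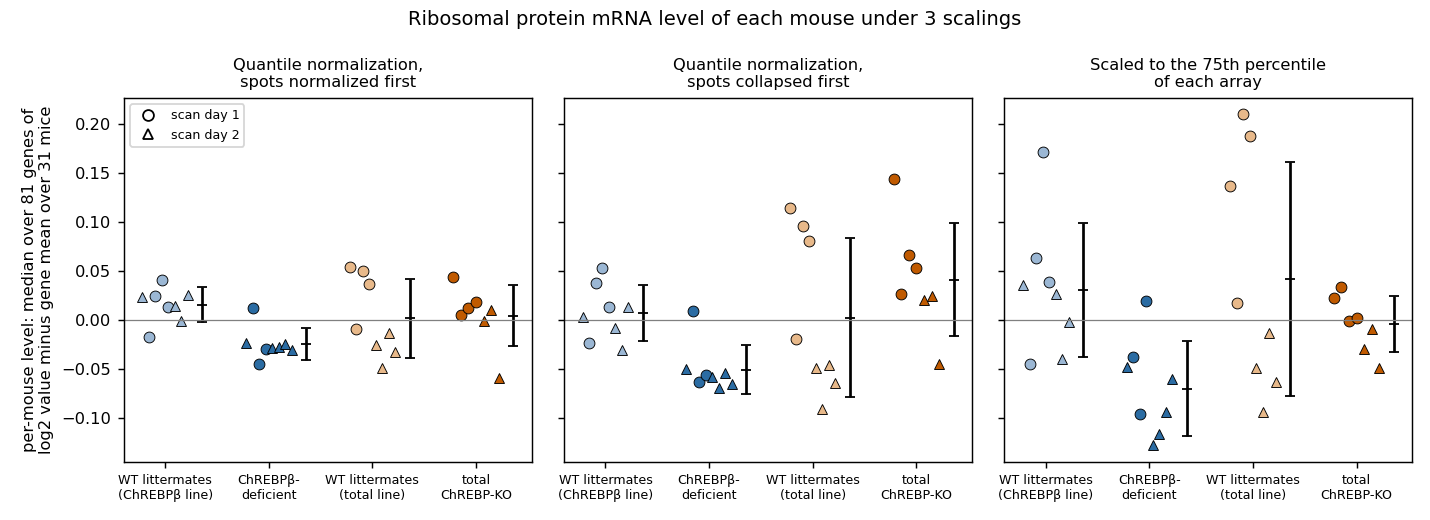
Level of the cytosolic ribosomal protein genes in each mouse, as the median over 81 genes of the log2 deviation from the mean over all mice, for the 4 groups. The panels show 3 ways of scaling the arrays, points are mice (circles and triangles mark the 2 scan days) and bars are the mean and SD; in the left panel ChREBPβ-deficient mice lie between -0.045 and 0.012 and total ChREBP-KO mice between -0.059 and 0.044, against -0.049 to 0.054 in WT littermates of the total line.

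In total ChREBP-KO livers single genes moved in both directions around a median near 0. Of the 176 probes, limma called 16 higher and 16 lower in the knockout mice (18.2%), compared with 29.1% of all probes (14.5% higher and 14.6% lower). Counted as genes, 11 were called higher and 12 lower by at least 1 probe, and 0 were called both ways. The share of all genes called by at least 1 probe was not computed, so these counts have no reference. With 1 probe per gene, 7 of 81 were higher and 9 lower, compared with 14.4% and 14.8% of all genes. In this limma fit the members' share of calls was below that of the array. Among bright probes, 26 of 155 members (16.8%) and 39.6% overall were called. The gap over all probes was smaller with the exact Mann-Whitney test, at 33 of 176 members beside 22.2% of all probes. It was also smaller without the filter on dim spots (27 of 176 beside 17.5%) and after normexp background correction (45 of 176 beside 29.7%). The median difference of the members was 0.011, close to the 0.00825 of all probes, and 73 of 176 probes were below 0.

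The balance between higher and lower calls depended on how the arrays were scaled. It was 16 higher and 16 lower with spots normalized before they were collapsed, 23 and 8 when they were collapsed first, 23 and 8 in the deposited values, 5 and 24 with processed signals at the 75th percentile, 6 and 21 with median signals at the 75th percentile, and 19 and 26 after normexp background correction. Between 27.1% and 29.8% of all probes were called in these settings, in either direction. The members' median went from 0.011 to 0.026 and 0.027 with the order of collapsing and in the deposited values. It went to -0.033 and -0.040 under the 75th-percentile scalings. Within scan days it was -0.0097 on the first day and 0.020 on the second. The sign for the set as a whole thus changed with the scaling, and the values below are those of single genes. Per-mouse levels ranged from -0.059 to 0.044 (mean 0.0041, SD 0.031, n = 7) in total ChREBP-KO mice and from -0.049 to 0.054 (mean 0.0014, SD 0.040, n = 8) in WT littermates, which were spread by scan day, with a median of 0.044 on the first day and -0.029 on the second.

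**Figure D2:**
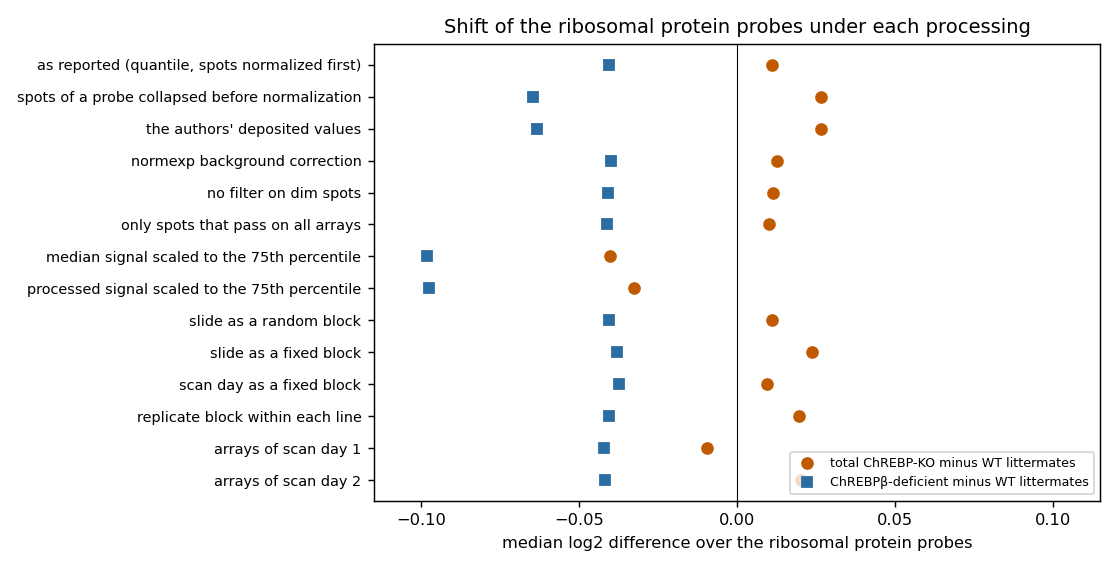
Median log2 difference over the member probes in the ChREBPβ and total ChREBP comparisons under each of the processing settings, with the settings as rows. The ChREBPβ median lies below 0 throughout, from -0.037 to -0.098, and the total ChREBP median lies on both sides of 0, from -0.040 to 0.027.

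The settings were run for the 15 called genes that are named here, each by its brightest probe, and 5 of these were called in total ChREBP-KO livers under each of the 14 settings that kept every array: Rpl22l1, Rpsa and Rps15a, which fell, and Rps27l and Rps2, which rose. Rpl22l1, the paralog of Rpl22, showed the largest difference of any bright member. It read 13.85, 14.10 and 14.37 (lowest, median and highest) in WT littermates and 13.45, 13.62 and 13.72 in total ChREBP-KO mice, so the groups did not overlap (log2 difference -0.52, SE 0.069, limma adjusted p = 8.1e-07, 0.698-fold). Rpl22l1 was 1 of 3 member probes that lay wholly below the WT mice, and 3 lay wholly above them, compared with 4.14% and 3.26% of all probes. In ChREBPβ-deficient mice the same probe read 13.95, 14.12 and 14.27, and in their WT littermates 14.07, 14.20 and 14.37 (difference -0.11, 95% interval -0.245 to 0.026). The test of the difference between these effects gave -0.41 (limma adjusted p = 0.00311). The difference was -0.64 in the arrays of the first scan day and -0.39 in those of the second.

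Rpl22, the parent gene, moved the other way. It read 14.24, 14.29 and 14.39 in WT littermates and 14.36, 14.41 and 14.51 in total ChREBP-KO mice, with overlap between the highest WT and the lowest knockout values (difference 0.14, SE 0.033, limma adjusted p = 0.00251). In the ChREBPβ line it read 14.26, 14.33 and 14.36 in WT and 14.25, 14.30 and 14.32 in deficient mice, and the effects in the lines differed by 0.16 (limma adjusted p = 0.0211). The call for Rpl22 was lost under both 75th-percentile scalings, and the difference of effects was not called with median signals at the 75th percentile or with slide as a fixed block (adjusted p = 0.0606). Levels of the pair were not compared, since each probe has its own brightness. To show that the probes read different letters, the first 30 bases of each are given, with the position of the whole 60-base probe on mm9.
Rpl22 probe, chr4:151704158-151704217, plus strand: aacctcggcggaggagtcgtgaccatcgaa
Rpl22l1 probe, chr3:28706237-28706296, plus strand: cagagtctgaggactaattggcctctgctt
The longest run of letters shared by the probes of each paralog with those of its parent was 4 to 7 bases. The Rpl22l1 probe shared a run of 25 letters with a probe named Gm15421, and the Rpl22 probe with a probe of an unnamed transcript. Signal from those transcripts cannot be told apart from the member. Of all 176 member probes, 49 shared such a run with a probe of another name. These included the brightest probes of Rpsa, Rps12, Rpl32 and Rpl36.

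Rps27l rose with 2 probes. The brighter read 15.44, 15.64 and 15.70 in WT littermates and 15.78, 15.80 and 15.93 in total ChREBP-KO mice, with no overlap (difference 0.23, SE 0.044, limma adjusted p = 0.000184, 1.17-fold). The other probe rose by 0.25 (limma adjusted p = 5.64e-06), also with no overlap. Rps27, the parent gene, rose as well, by 0.15 (adjusted p = 0.0112) and 0.17 (adjusted p = 0.00286) with its 2 probes. Its brighter probe read 15.93, 16.02 and 16.16 in WT littermates and 16.05, 16.13 and 16.31 in knockout mice, which overlapped. The Rps27 probes were placed by the array annotation on chromosome 9 of mm9, while the RefSeq gene lies on chromosome 3, so a copy of the gene cannot be told apart from it. The effects in the 2 lines differed for Rps27l (0.19, adjusted p = 0.0348) and for Rps27 (0.21, adjusted p = 0.0158). That of Rps27 was not called with slide as a fixed block (adjusted p = 0.0591) or under the 75th-percentile scalings, and that of Rps27l was not called without the filter on dim spots and in 10 of 31 fits that left out 1 array. The remaining pairs had no called probe. The brightest probe of Rpl7 differed by 0.035 (adjusted p = 0.503), that of Rpl7l1 by -0.048 (adjusted p = 0.71), that of Rps4x by -0.038 (adjusted p = 0.536), and Rps4l by 0.23, with a 95% interval from -0.129 to 0.593 (adjusted p = 0.358).

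**Figure D3:**
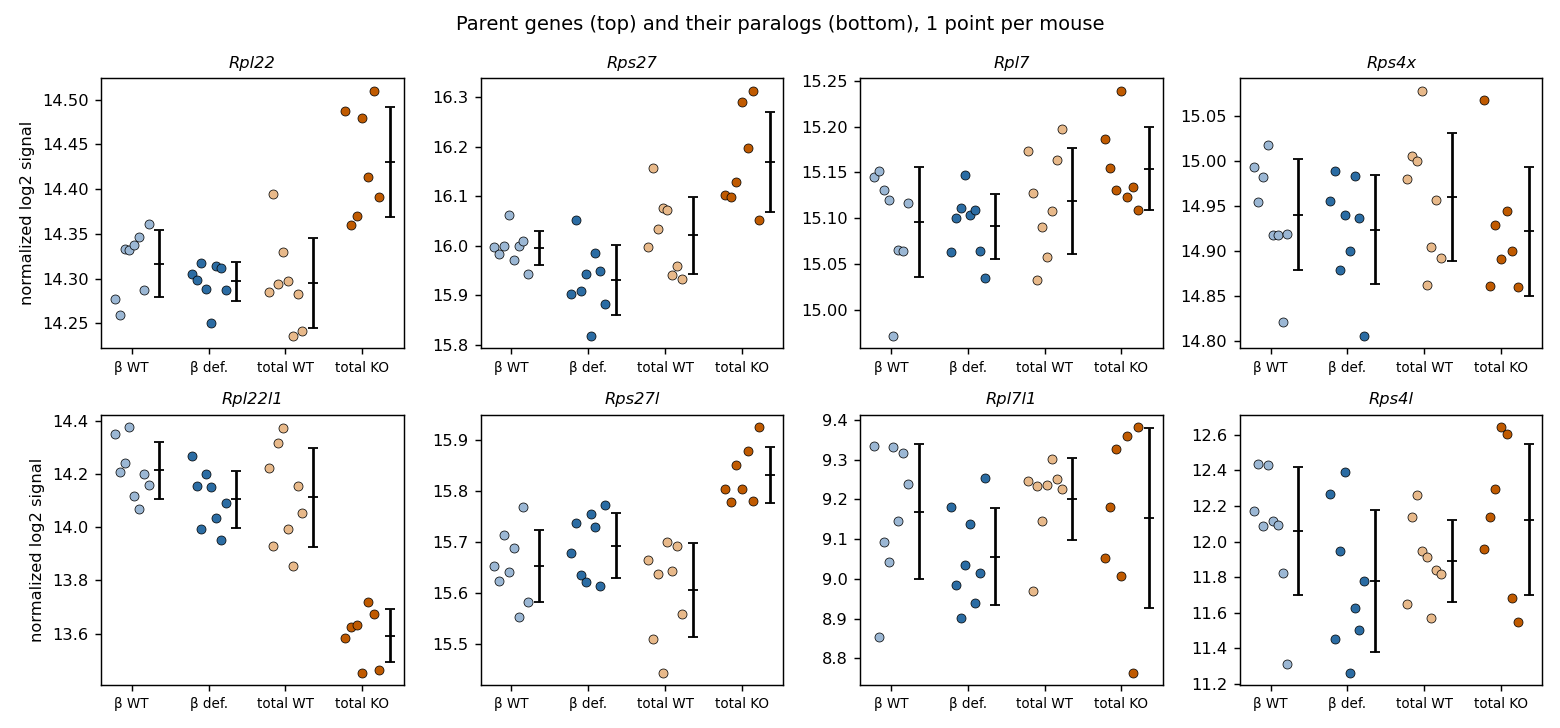
Normalized log2 signal of parent genes (top) and their paralogs (bottom) in each mouse of the 4 groups, with bars for the mean and SD. Rpl22l1 is lower and Rps27l is higher in the total ChREBP-KO mice with no overlap with their WT littermates, while the ChREBPβ groups overlap for each gene.

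Rps2, a small-subunit protein near the mRNA entry channel, rose by 0.20 (SE 0.036, limma adjusted p = 0.000111). It read 15.18, 15.26 and 15.34 in WT littermates and 15.32, 15.43 and 15.54 in total ChREBP-KO mice, with a narrow overlap. Its second probe rose by 0.15 (adjusted p = 0.00502). Both Rps2 probes shared a run of 25 letters with probes of other names. On mm9 the array annotation placed the brighter probe at chr17:42864841 and the second at chr17:24857583. The annotated start of the gene lies at chr17:24720048 on GRCm38.p6. For the brighter probe a copy of the gene cannot be told apart from it. In ChREBPβ-deficient mice Rps2 differed by -0.0099, and the difference of the effects was 0.21 (adjusted p = 0.00486). Rpl37a (0.12, adjusted p = 0.0221), Rpl32 (0.10, adjusted p = 0.0477) and Rpl36 (0.10, adjusted p = 0.0262) rose too, with Rpl36 also called by its second probe (0.13, adjusted p = 0.0182). The array annotation placed that second probe on chromosome X, while the RefSeq gene lies on chromosome 17, and it shared a run of 25 letters with a probe of another name. The second probe of Rpl37a differed by 0.063 and was not called. Rps27, Rpl37a and Rpl36 lost the call under both 75th-percentile scalings and with the line fitted alone, Rps27 and Rpl36 also with slide as a fixed block, and Rpl32 lost it in 8 of the 14 settings and in 18 of 31 fits that left out 1 array.

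Among the genes that fell, Rpsa, the small-subunit protein also known as the laminin receptor, fell by 0.22 with its brighter probe (SE 0.050, limma adjusted p = 0.000981) and by 0.12 with its second (adjusted p = 0.0346). It read 15.86, 15.92 and 16.08 in WT littermates and 15.64, 15.69 and 15.89 in total ChREBP-KO mice, with an overlap at the edges. In the ChREBPβ line it read 15.70, 15.92 and 16.09 in WT and 15.70, 15.77 and 15.84 in deficient mice (-0.13, adjusted p = 0.986), the lowest adjusted p among the members there. Rps15a fell by 0.15 (SE 0.036, adjusted p = 0.00159), with 14.96, 15.07 and 15.15 in WT littermates and 14.86, 14.91 and 14.98 in knockout mice, which overlapped in a narrow range. Rpl13 read 15.62, 15.68 and 15.79 in WT and 15.46, 15.55 and 15.58 in knockout mice, with no overlap (-0.15, adjusted p = 0.00103). Rpl3, which helps form the peptidyl transferase center, fell by 0.17 (adjusted p = 0.00164), Rps12 by 0.17 (adjusted p = 0.00336) and Rpl12, a stalk-base protein, by 0.14 (adjusted p = 0.0346). The values of Rps15a, Rpl13 and Rpl3 are those of the brightest probe, and most of their other probes were not called. The calls of Rpl3, Rps12, Rpl13 and Rpl12 were lost in the deposited values and with spots collapsed first. That of Rpl12 was lost in 8 of the 14 settings. Rpl37 fell by 0.29 (adjusted p = 0.0311), but its single probe lay near a log2 level of 5, above background on 5 of 7 knockout arrays. The probe dropped out when only spots passing on all arrays were kept. Its call was lost in 4 of the other 13 settings and in 7 of 31 fits that left out 1 array.

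**Figure D4:**
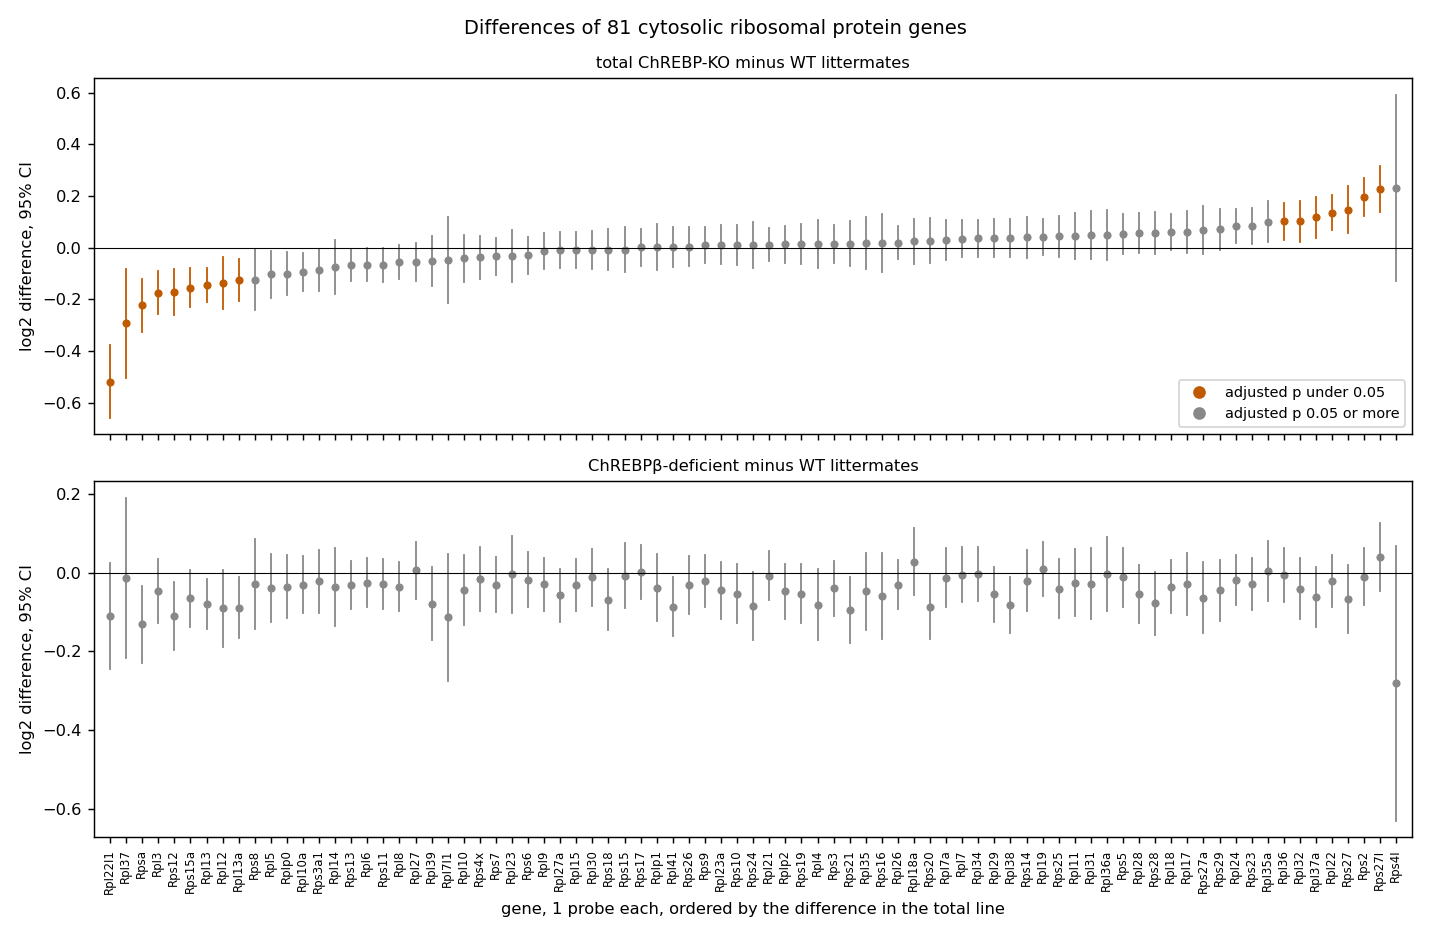
Log2 difference from WT littermates with its 95% interval for each of the 81 genes by its brightest probe, in the total ChREBP (top) and ChREBPβ (bottom) comparisons. Orange marks an adjusted p under 0.05; in total ChREBP-KO livers 7 are higher and 9 lower, and 75 of 81 ChREBPβ differences are below 0.

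Tested directly, the effect of losing both isoforms differed from that of losing ChREBPβ for 12 of 176 probes by limma, 8 with a more positive difference in the total line and 4 with a more negative one, compared with 15.1% of all probes (7.02% and 8.08%). The members' median of this difference was 0.054, and that of all probes was 0.0116. The positive members included Rps2, Rps27, Rpl22, Rpl37a (0.18, adjusted p = 0.0217) and Rps27l. That of Rpl37a was not called at the 75th percentile with processed signals (limma adjusted p = 0.227) or median signals (0.173). Rpl22l1 and Rps2 were called in each of the 12 settings in which this test was run with every array.

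The WT littermates of the 2 lines were compared to set a baseline for the differences between lines, which cannot be told apart from litter or genetic history. The WT group of the total line also served as the control of the total ChREBP comparison. Of the 176 member probes, 8 were higher and 9 lower in the WT mice of the total line by limma, compared with 17% of all probes (8.12% and 8.92%). The median difference was -0.0085 over the members and 0.00865 over all probes, and it was 0.025 on the first scan day and -0.034 on the second. The calls were unevenly spread by brightness, with 8 of 155 bright members (18.4% of all bright probes called) and 9 of 21 dim members (16.7% of all dim probes). Of the bright ones, Rpl9 was higher (0.12, adjusted p = 0.0115), as was Rps15a (0.11, adjusted p = 0.0283) and Rpl13 (0.092, adjusted p = 0.0429), and Rpl37a (-0.14, adjusted p = 0.00785) and Rps25 (-0.12, adjusted p = 0.0291) were lower. None of these 5 was called with slide as a fixed block (lowest adjusted p 0.0639) or under the 75th-percentile scalings, where Rpl37a moved to -0.0080 with processed signals. For Rpl37a, Rps15a and Rpl13, the difference in total ChREBP-KO livers had the opposite sign, and both comparisons use the same WT mice. Summed red cell markers were 17.8 to 18.4 in the WT mice of the total line and 16.5 to 17.6 in those of the ChREBPβ line, and 4 of 6 differed by limma. Their part in these differences was not tested.

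Several genes had dim probes that departed from the bright probes of the same gene, and 6 of the 21 were called in total ChREBP-KO livers, compared with 26.8% of all dim probes. The dim probe of Rps12 read 6.42, 6.81 and 7.70 in WT littermates of the total line and 5.99, 6.09 and 6.38 in total ChREBP-KO mice, with no overlap (-0.73, limma adjusted p = 5.63e-05). Its bright probe fell by 0.17. The dim probe of Rpl12 fell by 0.50 (adjusted p = 0.000388) against 0.14 for the bright one, and that of Rps20 by 0.50 (adjusted p = 0.000213), where the bright probes differed by 0.027 and by -0.00045 and were not called. In the opposite direction, the dim probes of Rps13 (0.56, adjusted p = 0.0195) and Rpl41 (0.49, adjusted p = 0.0317) rose. The bright probe of Rps13 differed by -0.068 and was not called, and those of Rpl41 differed by 0.0036 and rose by 0.19. In the WT mice of the total line against those of the ChREBPβ line the same dim probes differed by 0.91 (Rps12), 0.76 (Rpl12), 0.27 (Rps20), -0.92 (Rps13) and -0.73 (Rpl41), each called by limma and each opposite in sign to the effect of the knockout against the same WT mice. In ChREBPβ-deficient mice these probes differed by 0.014, -0.090, 0.057, -0.067 and -0.049, in the same order. The probes were picked after their values were seen. The letters of the Rps12 pair are shown because the bright and dim probes read different stretches of the gene.
Rps12 bright probe, chr10:23505428-23505711, minus strand: aaaggctgatgacaacaagaaactagggga
Rps12 dim probe, chr10:23506043-23506102, minus strand: tctactgtttgaggtaaagtcaggtgattt
These are the first 30 of 60 bases with positions on mm9 as the array annotation gives them, and whether a stretch lies in an exon or an intron was not analysed here. The range of the difference among bright probes of a gene was 0.032 in the median of the 55 genes with 2 or more such probes.

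**Figure D5:**
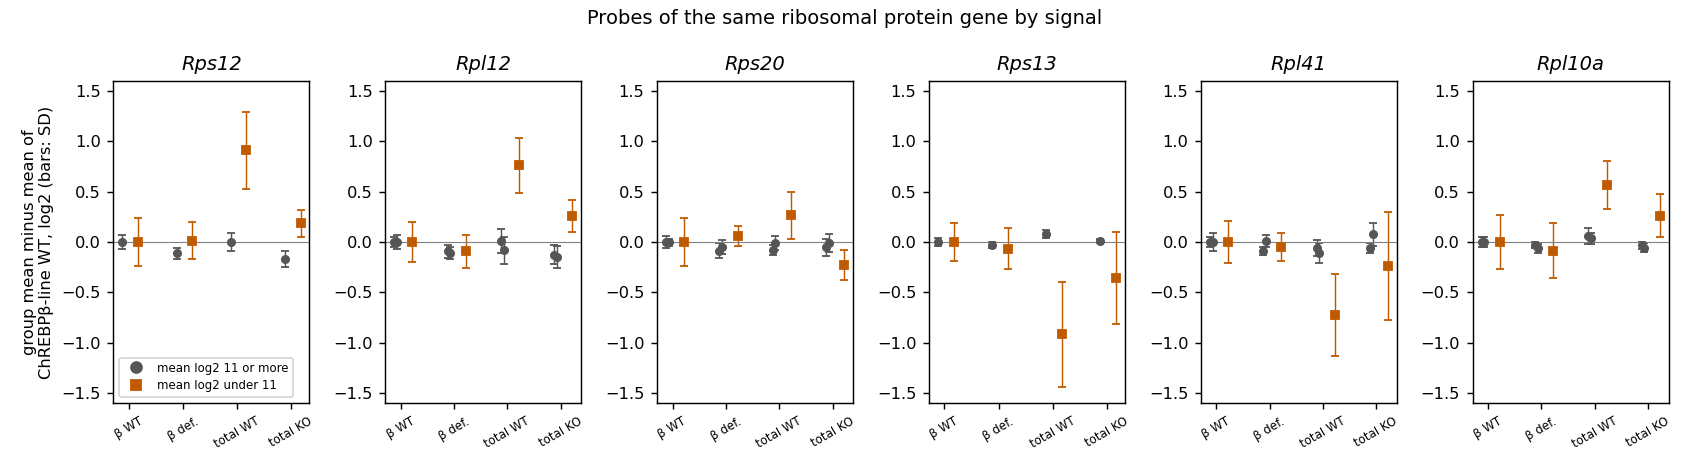
Group mean of each probe minus its mean in the WT littermates of the ChREBPβ line, on the log2 scale with SD bars, for 6 genes with bright (gray circles) and dim (orange squares) probes. Bright probes lie nearer 0, while dim probes such as those of Rps12 (0.91) and Rps13 (-0.92) depart in the WT mice of the total line.

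The other genes of ribosome production and of translation were read from lists of named genes, with 1 probe per gene and 29.3% of all genes called in total ChREBP-KO livers by limma (14.4% higher, 14.8% lower). Ribosome biogenesis factors had 2 higher and 20 lower of 49, with a median of -0.15. Those that fell included Utp20 (-0.60) and Heatr1 (-0.53, adjusted p = 1.08e-07), which act in the processing of the small-subunit precursor, Gar1 (-0.49), of the box H/ACA particle that modifies rRNA, and Nop56 (-0.39), of the box C/D particle. RNA polymerase I genes, which transcribe the rRNA precursor, had 4 lower and 0 higher of 14 (median -0.12), with Polr1e (-0.50) and Taf1b (-0.39) among them. Initiation factors had 15 lower and 0 higher of 38 (median -0.10), among them Eif6 (-0.44, adjusted p = 6.37e-05), which keeps free large subunits apart from small ones, and Eif2b3 (-0.39). TOP mRNAs outside the rule had 1 higher and 5 lower of 16 (median -0.078), with Fau rising (0.26, adjusted p = 0.000143), which encodes the small-subunit protein eS30, and Eef1a1 (-0.17, adjusted p = 0.00566), Pabpc1 (-0.20) and Npm1 (-0.20) falling. The call of Npm1 was lost in 5 of 14 settings and in 25 of 31 fits that left out 1 array, and that of Eef1a1 with the Mann-Whitney test. Mitochondrial ribosomal proteins had 10 higher and 13 lower of 77, against 29.3% of all genes, with Mrps2 (-0.41) and Mrpl49 (0.28) among them. The mTORC1 list had 4 higher and 2 lower of 22 (median 0.057). Rragc (0.40), Eif4ebp2 (0.28), Larp1 (-0.28) and Myc (-0.72, adjusted p = 0.0454) were among them. The p53 targets had 3 higher and 0 lower of 13 (Trp53inp1 1.27, Btg2 1.25, Plk2 0.65). Their median was 0.015, 23.1% were called, and the lowest member differed by -1.44 without being called. Myc lost its call in 14 of 31 fits that left out 1 array, Eif4ebp2 lost it in 3 of 14 settings, and Btg2 moved to 0.72 and lost it with slide as a fixed block, as did Nop56. In ChREBPβ-deficient livers 0 genes of each of these 7 lists were called by limma (0.00417% of all genes). Of their 227 genes, 5 lay higher and 4 lay lower at an unadjusted p under 0.05. Over all probes this held for 2.53% and 2.45%.

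The WT groups of the lines differed in the same lists. Ribosome biogenesis factors were higher for 31 and lower for 1 of 49 genes in WT mice of the total line (median 0.25), initiation factors for 13 and 0 of 38, and polymerase I genes for 5 and 0 of 14, compared with 17.1% of all genes by limma. The p53 targets were higher for 6 and lower for 1 of 13 genes (median 0.34). The knockout of the total line was compared with these same WT mice. Exocrine pancreas markers (8 of 16 passing) had 4 genes lower in total ChREBP-KO livers and 4 different between WT groups, with a summed level of 13.9 to 15.1 in knockout and 14.2 to 15.2 in WT mice. Adipocyte markers summed to 17.3 to 17.6 in total ChREBP-KO and 16.2 to 17.0 in WT livers, and hepatocyte markers summed to 20.85 to 20.92 against 20.70 to 20.78. The part of these cell types in the results was not tested.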

How the data were processed

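The authors hybridized liver RNA to Agilent 1-color arrays, extracted spot intensities with Agilent Feature Extraction 10.10.1.1 and imported them with limma. They quantile normalized the log2 median signal of spots chosen by spot weights and deposited a table of log2 values with the scanner intensities. Here the log2 median signal was used without background subtraction. Spots passing the weights on at least 26 of 31 arrays, or on at least 6 of 1 group (the methods count 32 arrays), were quantile normalized over spots, and the median of the spots of a probe was taken, leaving 36059 probes (36057 deposited). The deposited log2 values match the reverse order (largest distance 0.0155, compared with 0.137), which was added as an alternative. One limma model (version 3.58.1, R 4.3.3) held the 4 groups, and p-values were Benjamini-Hochberg adjusted over all probes at 0.05. Intervals are 95%. The test was checked on simulated data.

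Mice are separate animals of 1 group. The number of arrays limits the precision. The 15 slides and 2 scan days were treated as batches, and each day held all 4 groups. Alternatives were scaling to the 75th percentile of processed or median signals, normexp (offset 50), the filter, the moderation, slide and scan day as blocks, the replicate number as a block, each line alone, 1 probe per gene, an exact Mann-Whitney test per probe (the study's figure legends name the Mann-Whitney test) and leaving out each array.

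The members and the gene lists were chosen with earlier results of these data known. Genes named were those called in ChREBPβ-deficient livers, up to 8 per direction called in total ChREBP-KO livers, paralogs with their parents, up to 5 called between lines and up to 4 per list. Other named probes were picked after their values were seen. Positions of probes are those of the array annotation (mm9), and promoter letters are RefSeq on GRCm38.p6. No protein sequence was used here.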

Additional observations from a re-analysis of the deposited data

Results flagged for a closer look

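Of 92 groups of values examined for a mouse standing apart, 4 had one, and chance gives about 1 in 20. Rpl22 was lowest in ChREBPβ-deficient replicate 5 at 14.25 (next 14.29). The per-mouse ribosomal protein level was highest among ChREBPβ-deficient mice in replicate 2 at 0.012 (next -0.024). Rps4x was highest in total ChREBP-KO replicate 1 at 15.07 (next 14.94). Rpl7l1 was lowest in replicate 2 of the WT littermates of the total line at 8.97 (next 9.15).

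The effect of losing both isoforms differed from the effect of losing ChREBPβ, by the limma test of the difference, for Rpl22l1 (-0.41), Rps2 (0.21), Rps27 (0.21), Rpl22 (0.16), Rpl37a (0.18) and Rps27l (0.19). With slide as a fixed block the calls of Rps27, Rpl22 and Rpl37a were lost (adjusted p = 0.0591, 0.0606 and 0.0583), and with the replicate number as a block those of Rpl22 and Rps27l (0.0846 and 0.0980). At the 75th percentile those of Rps27 and Rpl37a were lost with both signals, and that of Rpl22 with median signals. No cause of these differences was tested.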

How the results depend on the processing

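The count of members called in ChREBPβ-deficient livers was 0 in each setting, and its median was negative in each. Their median moved to -0.097 (processed signals) and -0.098 (median signals) at the 75th percentile. In total ChREBP-KO livers the median moved to -0.033 and -0.040 there. The count was 21 of 176 with slide as a fixed block (23.0% of all probes called). It was 20 of 176 with the line fitted alone (25.6%) and 16 of 81 with 1 probe per gene (29.3% of all genes). For the difference of effects the count of 176 was 19 after normexp (16.1% of all probes called) and 23 in the deposited values (15.5%). It was 24 of 176 with spots collapsed first (15.5%) and 6 of 176 with slide fixed (10.9%). With 1 probe per gene it was 6 of 81 (15.3% of all genes). The median was 0.087 and 0.088 in the deposited and collapsed values. Between WT groups the count of 176 was 10 and 9 at the 75th percentile (17.3% and 14.3% of all probes called). It was 26 of 176 after normexp (17.9%) and 5 of 176 with slide fixed (5.82%). With 1 probe per gene it was 6 of 81 (17.1% of all genes), and in bright probes only 8 of 155 (18.4% of all bright probes). The median was 0.025 on scan day 1. Rpl7 turned to -0.0087 and -0.0070 at the 75th percentile (not called). The cause of these moves was not tested. Bright probes only, single scan days and the collapse order were chosen after seeing the data.

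Leaving out each array in turn, the count in total ChREBP-KO livers was 26 to 39, in the ChREBPβ line 0, for the difference 9 to 13 and between WT groups 12 to 19. The medians ran from 0.0014 to 0.020, from -0.046 to -0.037, from 0.047 to 0.069 and from -0.015 to 0.00024, and Rpl7l1 from -0.086 to 0.017.

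Replicate numbers were not taken as pairs, since not every same-number pair had a correlation over 0.1 (2 of 7 in the total and 6 of 8 in the ChREBPβ line; 1 of 7 and 4 of 8 mice correlated best with their own number, a hint of pairing in the ChREBPβ line). With the replicate number as a block the counts were 25 (total), 0 (ChREBPβ) and 8 (difference); it could not be fitted between WT groups. The block also ended the calls of Rpl36, Rpl37, Rpl12, Rpl32, Eif4ebp2, Pabpc1 and Npm1 in total ChREBP-KO livers.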
